A study of Mus musculus with 21 samples.

Results

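The genes described are 10 genes of Notch signalling in the mouse embryonic pancreas: the ligand genes Dll1 and Jag1, the receptor genes Notch1 and Notch3, the Fringe genes Lfng and Rfng, and the target genes Hes1, Hey1, Hey2 and Nrarp. They were chosen by name, each through the array probe set whose platform annotation gives that symbol alone, and every one of the 10 had exactly 1 such probe set among the 19296 genes tested. The choice was made with earlier results of these data known, so their counts and medians beside those of all genes are a description. Pancreata of mice on a mixed C57-Bl6/SV129/CD1 background were sorted on FVF, a fusion of the endodermal transcription factor Foxa2 with the fluorescent protein Venus, into cells with the fusion protein (FVF+) and the remaining cells (FVF-). The arrays numbered 21: at E12.5, where E stands for embryonic day, 2 of FVF- and 3 of FVF+ cells, at E13.5, 2 of each sort, and at E14.5 and at E15.5, 3 of each. All groups share the fusion, and the labels used here say neither whether 1 or both Foxa2 alleles carried it nor how many embryos or litters went into an array. The replicates are called biological without more detail, so a p-value here reflects the variation from array to array, part of which may be technical, and precision is limited by how many arrays there are.

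Notch signalling passes between touching cells. A ligand on one cell binds a Notch receptor on its neighbour, the receptor is cut, and its intracellular part enters the nucleus, where it joins the DNA-binding protein Rbpj and Mastermind co-activators and switches on target genes, above all transcriptional repressors of the Hes and Hey families. Fringe enzymes extend sugars on the receptor and so tune which ligands it answers to. In the embryonic pancreas the pathway is known for holding epithelial progenitors back from endocrine differentiation through Hes1, a repressor of Neurog3, and it also acts in blood vessels and the mural cells around them.

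The sorts carried the markers of their labels. Levels are log2 values of the array signal after robust multi-array averaging (RMA), so a difference of 1 is a 2-fold difference. They come without detection calls, so a fold is a ratio of signals, and one against a dim signal may not be the ratio of the RNA. Foxa2 itself lay between 10.87 and 11.51 on every FVF+ array and between 7.98 and 8.89 on every FVF- array. The mean level of 6 epithelial marker genes ran from 12.79 to 13.08 on FVF+ arrays and from 8.29 to 10.10 on FVF- arrays, and that of 9 mural cell markers from 7.99 to 9.15 on FVF+ and from 11.05 to 11.61 on FVF- arrays. These are pools of cells, in which fewer cells of a type and less RNA per cell cannot be told apart. The FVF- pools also carried markers of mesenchyme, endothelium, blood and macrophages, so a level there is an average over unlike cells.

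Promoters were examined because Rbpj binds DNA at a short core, TGGGAA, and because 4 of the 10 genes are known as its targets. RefSeq promoter windows of 300 bases on the GRCm38.p6 build, most of each before the transcription start and the last 50 bases after it, were found for 8 of the 10 genes, not for Hes1 and Hey1. The core was searched on both strands. It was present in the windows of Hey2 and Lfng, with 2 copies each, and these letters were not in the windows of Dll1, Jag1, Notch1, Notch3, Nrarp and Rfng. Of all 32851 mouse promoter windows searched in the same way, 25.6% held at least 1 core and 3.79% held 2 or more. The longer motif GTGGGAA, which contains the core, was in 6.38% of the windows. Both cores of Hey2 were part of the longer motif, and 1 of the 2 of Lfng. The windows of Hey2 (chr10:30842734-30843033, minus strand), Lfng (chr5:140607091-140607390, plus strand) and, as a target gene without the core there, Nrarp (chr2:25180508-25180807, plus strand) are printed here 5′ to 3′ on the gene's strand. Capitals mark TGGGAA or its reverse complement TTCCCA. The cores of Hey2 begin at bases 44 and 248 of its window, the second within a few bases of the transcription start, and those of Lfng at bases 116 and 143. A match is a description of the letters and not a measured binding site.
Hey2: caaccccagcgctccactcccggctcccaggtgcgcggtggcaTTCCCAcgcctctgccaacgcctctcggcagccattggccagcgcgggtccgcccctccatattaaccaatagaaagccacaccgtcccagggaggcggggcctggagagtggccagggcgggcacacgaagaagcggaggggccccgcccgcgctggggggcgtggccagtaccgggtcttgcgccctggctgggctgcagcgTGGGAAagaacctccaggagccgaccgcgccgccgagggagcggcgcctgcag
Lfng: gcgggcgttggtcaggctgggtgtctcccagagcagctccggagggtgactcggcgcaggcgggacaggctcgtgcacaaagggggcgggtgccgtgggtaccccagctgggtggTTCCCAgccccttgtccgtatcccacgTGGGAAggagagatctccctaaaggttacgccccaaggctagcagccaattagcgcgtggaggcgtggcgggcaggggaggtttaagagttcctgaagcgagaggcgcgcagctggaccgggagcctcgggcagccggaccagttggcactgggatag
Nrarp: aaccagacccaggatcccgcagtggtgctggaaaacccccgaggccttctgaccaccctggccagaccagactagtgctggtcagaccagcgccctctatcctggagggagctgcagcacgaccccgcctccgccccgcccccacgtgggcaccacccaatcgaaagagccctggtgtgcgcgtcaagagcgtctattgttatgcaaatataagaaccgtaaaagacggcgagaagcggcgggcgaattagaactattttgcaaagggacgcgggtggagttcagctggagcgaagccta

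Over the 4 days as a whole, the Notch genes were divided between the sorts. Dll1, Nrarp, Notch1 and Hes1 were higher in FVF+ cells, whereas Hey2, Notch3, Jag1 and Rfng were higher in FVF- cells. Hey1 and Lfng were not called in either direction. In limma, which moderates each gene's spread by that of all genes, 4 of the 10 were higher, where 30.5% of all 19296 genes were, and 4 were lower, where 25.2% of all genes were, at an adjusted p under 0.05. Either count is near the share of all genes, which were divided between the sorts as well. The median size of the difference was 0.56 log2 units over the 10 genes and 0.19 over all genes.

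**Figure D1:**
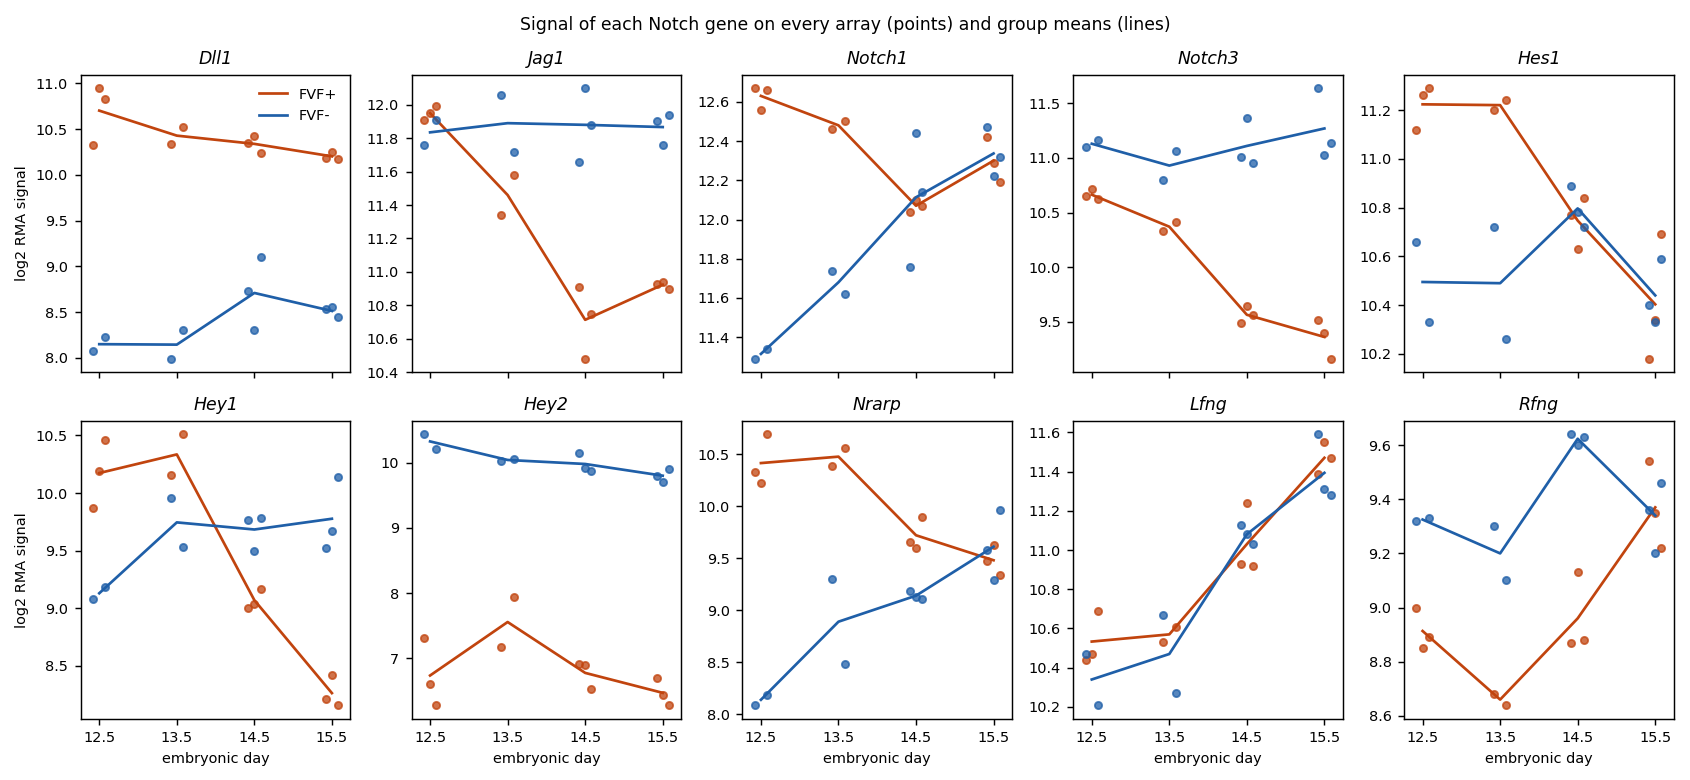
Log2 RMA signal (vertical axis) of each of the 10 Notch genes by embryonic day (horizontal axis), with 1 point per array, FVF+ in orange and FVF- in blue, and lines through the group means. The lines of Hey1 cross between E13.5 and E14.5, those of Notch1, Hes1 and Nrarp meet by E15.5, those of Jag1 and Notch3 part, and those of Dll1 and Hey2 stay apart on all 4 days.

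The ligand gene Dll1, whose product is the Delta-like ligand of early pancreatic epithelium and endocrine precursors, was a gene of the FVF+ sort on every day. On FVF+ arrays it read 10.33, 10.95 and 10.83 at E12.5, 10.34 and 10.52 at E13.5, 10.35, 10.43 and 10.24 at E14.5, and 10.19, 10.25 and 10.17 at E15.5. On FVF- arrays it read 8.07 and 8.23 at E12.5, 7.99 and 8.30 at E13.5, 8.73, 8.30 and 9.10 at E14.5, and 8.53, 8.56 and 8.45 at E15.5. The lowest FVF+ array thus lay above the highest FVF- array. The difference was 2.55 ± 0.19 log2 units at E12.5 (SE, adjusted p = 5.2e-09), a 5.87-fold ratio, and 1.69 ± 0.17 at E15.5 (adjusted p = 1.2e-07), a 3.23-fold ratio. Both folds are against a dim signal, since the FVF- values of these days lay below the array medians of 8.68 to 8.82. Within FVF+, Dll1 fell by 0.50 ± 0.17 from E12.5 to E15.5 (adjusted p = 0.0204), a call that was lost after quantile normalization (-0.40, adjusted p = 0.0592) and without FVF+ replicate 2 (-0.38) or 3 (-0.44) of E12.5 or FVF+ replicate 3 of E15.5 (-0.48). In FVF- the change was 0.36 ± 0.19 (adjusted p = 0.193). The spread of Dll1 among the FVF- arrays of E14.5 went with epithelial markers, whose mean level was 9.47, 8.47 and 10.10 on the same arrays where Dll1 read 8.73, 8.30 and 9.10. At E15.5 it did not: these markers had means of 8.85, 9.58 and 9.345 on the FVF- arrays where Dll1 read 8.53, 8.56 and 8.45. The part of these markers in the Dll1 level was not tested.

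Jag1 encodes the Jagged ligand, which is found in mesenchyme and vessels as well as in epithelium. It was not called between the sorts at E12.5, fell in FVF+ cells afterwards, and was lower there than in FVF- on the 3 later days. On FVF+ arrays Jag1 read 11.91, 11.95 and 11.99 at E12.5, 11.34 and 11.58 at E13.5, 10.91, 10.48 and 10.75 at E14.5, and 10.93, 10.94 and 10.90 at E15.5. On FVF- arrays the values ran from 11.66 to 12.10 over the 4 days. At E12.5 the sorts overlapped, at E13.5 to E15.5 they did not. The sort difference was 0.12 ± 0.14 at E12.5 (adjusted p = 0.554, 95% interval -0.17 to 0.40), -1.17 ± 0.12 at E14.5 (adjusted p = 2.7e-07) and -0.94 ± 0.12 at E15.5 (adjusted p = 4.0e-06). At E13.5 it was -0.43 ± 0.15 (adjusted p = 0.0364), and that call was lost without replicate 1 of either sort at E13.5 (-0.26 without the FVF- and -0.31 without the FVF+ array). Within FVF+, Jag1 fell by 1.03 ± 0.12 from E12.5 to E15.5 (adjusted p = 6.5e-06), a 2.04-fold drop, while in FVF- the change was 0.03 ± 0.14 (adjusted p = 0.910, interval -0.26 to 0.32). The interaction, which is the change in FVF+ minus the change in FVF-, was -1.06 ± 0.18 (adjusted p = 8.0e-04).

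Notch1, the receptor of pancreatic progenitors and of endothelium, was higher in FVF+ cells at the 2 earlier days and was not called between the sorts at the 2 later ones. In FVF- it read 11.29 and 11.34 at E12.5, 11.74 and 11.62 at E13.5, 11.76, 12.44 and 12.14 at E14.5, and 12.47, 12.22 and 12.32 at E15.5. In FVF+ it read 12.67, 12.56 and 12.66 at E12.5, a mean of 12.48 ± 0.028 (SD, n = 2) at E13.5, 12.04, 12.10 and 12.07 at E14.5, and 12.42, 12.29 and 12.19 at E15.5. The sorts were apart at E12.5 and E13.5 and overlapped at E14.5 and E15.5. The difference went from 1.31 ± 0.14 at E12.5 (adjusted p = 3.7e-07) over 0.80 ± 0.15 at E13.5 (adjusted p = 3.7e-04) to -0.04 ± 0.12 at E14.5 and at E15.5 (intervals -0.30 to 0.21 and -0.29 to 0.22). In FVF- cells Notch1 rose by 1.02 ± 0.14 from E12.5 to E15.5 (adjusted p = 5.0e-05). In FVF+ it fell by 0.33 ± 0.12 (adjusted p = 0.0345), a call lost after quantile normalization (-0.31, adjusted p = 0.0772), after cyclic loess normalization (-0.24, adjusted p = 0.198) and without any of 4 single FVF+ arrays, replicates 1 and 3 of E12.5 and replicates 2 and 3 of E15.5 (-0.33 to -0.28). The interaction was -1.35 ± 0.18 (adjusted p = 8.7e-05).

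Notch3, a receptor best known from vascular smooth muscle and pericytes, had the higher level in the FVF- sort each day, and the gap widened. The FVF+ arrays read 10.65, 10.72 and 10.62 at E12.5, 10.33 and 10.41 at E13.5, 9.49, 9.64 and 9.56 at E14.5, and 9.52, 9.40 and 9.16 at E15.5. On FVF- arrays it ran from 10.80 to 11.64, with the lowest value at E13.5 and the highest at E15.5. No FVF+ array reached the lowest FVF- array. The difference was -0.47 ± 0.16 at E12.5 (adjusted p = 0.0271) and -1.91 ± 0.14 at E15.5 (adjusted p = 3.1e-09), where FVF- was 3.76-fold higher. The call at E12.5 was lost without either FVF- array of that day or without FVF+ replicate 1 or 3 (-0.50 to -0.44), and the call at E13.5 (-0.56 ± 0.17, adjusted p = 0.0184) without FVF- replicate 2 or either FVF+ array (-0.60 to -0.43). Within FVF+, Notch3 fell by 1.30 ± 0.14 from E12.5 to E15.5 (adjusted p = 2.2e-06), against 0.14 ± 0.16 in FVF- (adjusted p = 0.612). The interaction was -1.44 ± 0.21 (adjusted p = 1.8e-04).

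The 2 Fringe genes encode glycosyltransferases that add a sugar to fucose on the receptor's EGF repeats. Lfng, Lunatic fringe, was the 1 gene of the 10 that rose in both sorts. Its FVF+ values were 10.44, 10.47 and 10.69 at E12.5, 10.53 and 10.61 at E13.5, 10.93, 11.24 and 10.92 at E14.5, and 11.39, 11.55 and 11.47 at E15.5. The FVF- arrays read 10.47 and 10.21 at E12.5, 10.67 and 10.27 at E13.5, 11.13, 11.08 and 11.03 at E14.5, and 11.59, 11.31 and 11.28 at E15.5. The sorts overlapped on each day, and the later arrays were the higher ones in both. The rise from E12.5 to E15.5 was 0.94 ± 0.12 in FVF+ (adjusted p = 1.4e-05) and 1.05 ± 0.13 in FVF- (adjusted p = 3.2e-05). The mean sort difference was 0.08 ± 0.07 (adjusted p = 0.328, interval -0.06 to 0.22), and the interaction was -0.12 ± 0.18 (adjusted p = 0.684, interval -0.50 to 0.26).

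Rfng, Radical fringe, was lower in FVF+ cells until E14.5 and was not called between the sorts at E15.5. On FVF+ arrays it read 9.00, 8.85 and 8.89 at E12.5, 8.68 and 8.64 at E13.5, 8.87, 9.13 and 8.88 at E14.5, and 9.54, 9.35 and 9.22 at E15.5. On FVF- arrays it lay between 9.10 and 9.64, and the sorts overlapped at E15.5 only. The sort difference was -0.41 ± 0.11 at E12.5 (adjusted p = 0.00596), -0.54 ± 0.12 at E13.5 (adjusted p = 0.00162), -0.66 ± 0.10 at E14.5 (adjusted p = 1.6e-05) and 0.03 ± 0.10 at E15.5 (adjusted p = 0.828, interval -0.17 to 0.23). Within FVF+, Rfng rose by 0.46 ± 0.10 from E12.5 to E15.5 (adjusted p = 0.00120). In FVF- the change was 0.01 ± 0.11 (adjusted p = 0.948). The interaction was 0.44 ± 0.15 (adjusted p = 0.0410), and this call was lost in 10 of the 21 fits that left out 1 array and under 4 other settings, with the difference between 0.36 and 0.45 in each of them.

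Hes1, the repressor that keeps progenitors from switching on Neurog3, was higher in FVF+ cells at E12.5 and E13.5. In FVF+ it read 11.12, 11.26 and 11.29 at E12.5, 11.20 and 11.24 at E13.5, 10.77, 10.63 and 10.84 at E14.5, and 10.18, 10.34 and 10.69 at E15.5. On FVF- arrays it lay between 10.26 and 10.89 over the 4 days. The FVF+ arrays of the 2 earlier days were above every FVF- array, and those of the 2 later days overlapped them. The difference was 0.73 ± 0.15 at E12.5 (adjusted p = 8.0e-04) and 0.73 ± 0.16 at E13.5 (adjusted p = 0.00193), against -0.05 ± 0.13 at E14.5 and -0.04 ± 0.13 at E15.5. Within FVF+, Hes1 fell by 0.82 ± 0.13 from E12.5 to E15.5 (adjusted p = 1.3e-04), with -0.05 ± 0.15 in FVF- (adjusted p = 0.853, interval -0.37 to 0.26). The interaction was -0.77 ± 0.20 (adjusted p = 0.0134), and it missed the threshold without FVF- replicate 2 of E12.5 (-0.60, adjusted p = 0.104).

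Hey1, a repressor of the Hey family known from vessel and heart development, changed sides. The FVF+ arrays read 9.87, 10.19 and 10.46 at E12.5, 10.16 and 10.51 at E13.5, 9.00, 9.04 and 9.17 at E14.5, and 8.21, 8.42 and 8.16 at E15.5. Its FVF- values were 9.08 and 9.18 at E12.5, 9.96 and 9.53 at E13.5, 9.77, 9.50 and 9.78 at E14.5, and 9.52, 9.67 and 10.14 at E15.5. At E12.5 and E13.5 every FVF+ array was above every FVF- array of its day, and at E14.5 and E15.5 every one was below. The sort difference was 1.04 ± 0.19 at E12.5 (adjusted p = 2.1e-04), 0.59 ± 0.20 at E13.5 (adjusted p = 0.0348), -0.61 ± 0.17 at E14.5 (adjusted p = 0.00542) and -1.51 ± 0.17 at E15.5 (adjusted p = 5.1e-07). The call at E13.5 was lost without FVF- replicate 2 (0.38) or FVF+ replicate 2 (0.41) of that day. Averaged over the 4 days the difference was -0.12 ± 0.09 (adjusted p = 0.273), and over the 3 days without E13.5 it was -0.36 (adjusted p = 0.00491). Within FVF+, Hey1 fell by 1.91 ± 0.17 from E12.5 to E15.5 (adjusted p = 2.0e-07), a 3.76-fold drop. At E15.5 Hey1 lay below the array medians of 8.68 to 8.82 on every FVF+ array, so this fold too rests on a dim signal. In FVF- it rose by 0.65 ± 0.19 (adjusted p = 0.0194), a call lost without either FVF- array of E12.5 (0.60 and 0.70) or without FVF- replicate 3 of E15.5 (0.47). The interaction was -2.56 ± 0.25 (adjusted p = 3.9e-06).

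Hey2, the close relative of Hey1, lay on the FVF- side throughout. On FVF- arrays it read 10.44 and 10.22 at E12.5, 10.03 and 10.06 at E13.5, 10.15, 9.92 and 9.88 at E14.5, and 9.80, 9.71 and 9.90 at E15.5. Its FVF+ values were 7.31, 6.61 and 6.28 at E12.5, 7.17 and 7.94 at E13.5, 6.91, 6.89 and 6.52 at E14.5, and 6.69, 6.43 and 6.28 at E15.5. The sorts were far apart on all 4 days. The difference was -3.60 ± 0.24 at E12.5 (adjusted p = 1.9e-09), -2.49 ± 0.26 at E13.5 (adjusted p = 6.2e-07), -3.21 ± 0.21 at E14.5 (adjusted p = 7.8e-10) and -3.34 ± 0.21 at E15.5 (adjusted p = 6.1e-10). No fold is given, since all 11 FVF+ values lay below the array medians of 8.68 to 8.82 and are not shown to be above background. From E12.5 to E15.5 Hey2 differed by -0.27 ± 0.21 in FVF+ (adjusted p = 0.316, interval -0.72 to 0.18) and by -0.53 ± 0.24 in FVF- (adjusted p = 0.137), and the interaction was 0.26 ± 0.32 (adjusted p = 0.60, interval -0.41 to 0.93). On some FVF+ arrays non-epithelial markers moved with Hey2, on others they did not. FVF+ replicate 1 of E12.5, at 7.31 for Hey2, had a mural marker mean of 8.90 against 8.10 and 7.99 on the other 2 arrays and a mesenchyme mean of 8.94 against 7.95 and 7.71. FVF+ replicate 2 of E13.5, at 7.94, had an endothelial marker mean of 9.18 against 7.98 on the other array and a mural mean of 9.15 against 8.83, but a mesenchyme mean of 9.06 against 9.07, a red blood cell mean of 9.02 against 9.18 and a macrophage mean of 7.72 against 8.17. FVF+ replicate 2 of E14.5 had an endothelial mean of 9.16 with Hey2 at 6.89. Their part in the Hey2 signal of FVF+ cells was not tested.

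Nrarp encodes a small ankyrin repeat protein that is switched on by Notch and dampens it in turn. It went down in FVF+ and up in FVF- until the sorts met. On FVF+ arrays it read 10.33, 10.22 and 10.69 at E12.5, 10.39 and 10.56 at E13.5, 9.66, 9.60 and 9.90 at E14.5, and 9.47, 9.63 and 9.34 at E15.5. In FVF- it read 8.09 and 8.19 at E12.5, 9.30 and 8.48 at E13.5, 9.18, 9.13 and 9.11 at E14.5, and 9.58, 9.29 and 9.96 at E15.5. The sorts were apart until E14.5 and overlapped at E15.5. The difference shrank from 2.27 ± 0.20 at E12.5 (adjusted p = 6.2e-08), a 4.83-fold ratio, over 1.58 ± 0.22 at E13.5 and 0.58 ± 0.18 at E14.5 (adjusted p = 0.0144) to -0.13 ± 0.18 at E15.5 (adjusted p = 0.599, interval -0.52 to 0.26). That fold is against a dim signal, since the FVF- values of E12.5 lay below the array medians of 8.68 to 8.82. The call at E14.5 was lost without FVF+ replicate 3 of that day (0.49, adjusted p = 0.069). From E12.5 to E15.5 Nrarp fell by 0.93 ± 0.18 in FVF+ (adjusted p = 6.3e-04) and rose by 1.47 ± 0.20 in FVF- (adjusted p = 7.1e-05). The interaction was -2.40 ± 0.27 (adjusted p = 1.8e-05).

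**Figure D2:**
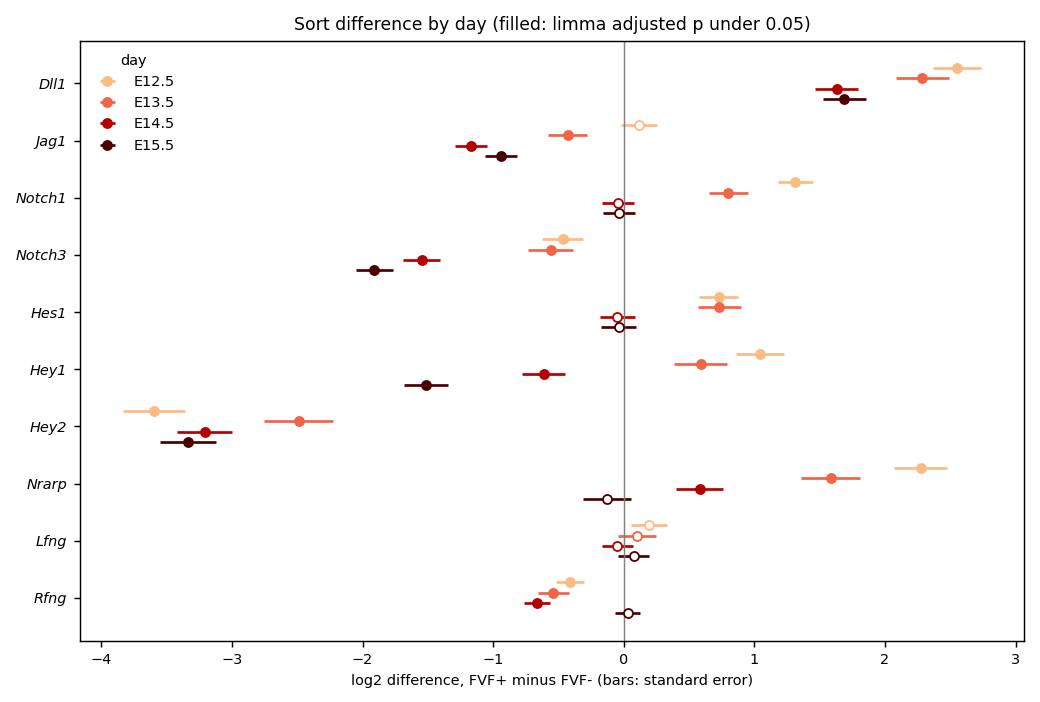
Log2 difference of FVF+ minus FVF- (horizontal axis, bars are standard errors) of each gene at each of the 4 days, from E12.5 in light orange to E15.5 in very dark red, filled where limma called it. Hey1 runs from 1.04 at E12.5 to -1.51 at E15.5, Nrarp from 2.27 to -0.13, and Notch3 from -0.47 to -1.91.

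Counted by day, 8, 9, 7 and 5 of the 10 genes were called between the sorts from E12.5 to E15.5. At E12.5, 8 of the 10 genes were called, where 35.9% of all genes were, 5 of them higher in FVF+ (Dll1, Notch1, Hes1, Hey1 and Nrarp) and 3 lower. At E13.5, 9 were called, where 30.9% of all genes were, since Jag1 had joined the genes that were lower. At E14.5, 7 were called, where 44.6% of all genes were, with Dll1 and Nrarp higher and 5 lower. At E15.5, 5 were called, where 43.9% of all genes were, with Dll1 alone higher and Jag1, Notch3, Hey1 and Hey2 lower. On each day the genes called were those whose arrays did not overlap between the sorts. The counts without overlap were thus also 8, 9, 7 and 5 of 10, where 63.2%, 63.3%, 47.9% and 52.8% of all genes had no overlap. The count at E15.5 is thus near the share of all genes by both measures. The days differ in the number of arrays, and the differences between these counts were not tested.

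Within FVF+ cells, 9 of the 10 genes changed from E12.5 to E15.5. Dll1, Jag1, Notch1, Notch3, Hes1, Hey1 and Nrarp fell, 7 genes where 19.3% of all genes fell, and Lfng and Rfng rose, 2 genes where 27.6% of all genes rose. The arrays of the 2 days did not overlap for any of these 9, as for 57.3% of all genes. The median change was -0.66 over the 10 genes and 0.09 over all genes. At the same time the mean level of 4 acinar markers went from 10.58 to 10.70 over the E12.5 arrays up to 12.94 to 13.07 over the E15.5 arrays, and that of 5 endocrine markers from 11.46 to 11.85 up to 12.59 to 12.74. Of the acinar markers 3 rose, and of the endocrine ones 2 rose and 3 were not called. Between these days the means of Ins2, Chga and Neurog3 went from 9.23 to 12.36, 12.01 to 13.32 and 12.46 to 12.99. Those of Neurod1 and Gcg went from 10.65 to 10.59 and 14.19 to 14.13. At E14.5 the endocrine mean level was higher than at E15.5, at 12.95 to 13.27. The mean level of the 6 epithelial markers was 12.93 to 13.03 at E12.5 and 12.79 to 12.99 at E15.5. The part of this shift of markers in the falls was not tested.

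Within FVF- cells, 4 genes rose over the same time, Notch1, Hey1, Nrarp and Lfng, where 10.7% of all genes rose. None of the 10 was called as lower in limma, where 9.7% of all genes fell. At an unadjusted p under 0.05 there were 5 genes, the fifth being Hey2 (-0.53, unadjusted p = 0.0411), where 31.6% of all genes were. In a fit on the 2 compared groups alone, Hey2 was called as lower (-0.53, adjusted p = 0.0077) and Dll1 as higher (0.36, adjusted p = 0.026). Of all genes called in this comparison 52.5% were higher at E15.5, a share that went to 36.8% after median centring and to 64.3% after cyclic loess normalization, while the 4 Notch genes were called as higher under both. Markers of several cell types rose in FVF- as well. The mean level of the 4 acinar markers, of which 3 rose, ran from 8.08 to 8.29 at E12.5 and from 9.65 to 10.83 at E15.5, with a median change of 2.15. Of 4 red blood cell markers 2 fell and 1 rose, with a median change of -0.82. The mean level of 10 endothelial markers, of which 6 rose, ran from 9.87 to 10.12 at E12.5 and from 10.50 to 11.23 at E15.5. That of the mural markers, of which 4 of 9 rose, ran from 11.05 to 11.14 and from 11.52 to 11.61, and that of the epithelial markers, of which 3 of 6 rose, from 8.29 to 8.30 and from 8.85 to 9.58. Of 4 mesothelial markers 3 rose (median change 0.88), and of 6 macrophage markers 3 rose (median 0.85). Of 8 mesenchyme markers 4 rose and 1 fell (median 0.67). The part of these cell types in the rise of Notch1, Hey1, Nrarp and Lfng was not tested.

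The 2 changes differed from each other for 8 of the 10 genes by the interaction. It was below 0 for Dll1, Jag1, Notch1, Notch3, Hes1, Hey1 and Nrarp, 7 genes where 8.83% of all genes were, and above 0 for Rfng, 1 gene where 10.8% of all genes were. The call of Dll1 (-0.86) was lost after quantile normalization (-0.67, adjusted p = 0.0596), with the replicate block inside days (-0.80) and without either FVF- array of E12.5 or FVF+ replicate 2 or 3 of that day (-0.94 to -0.74). The median interaction was -0.96 over the 10 genes and 0.07 over all genes. Of all genes with a called interaction 55.0% were above 0, and 40.3% after cyclic loess normalization. Without FVF- replicate 2 of E12.5, 1 of the 2 arrays of its group, 5 of the 10 genes were called.

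**Figure D3:**
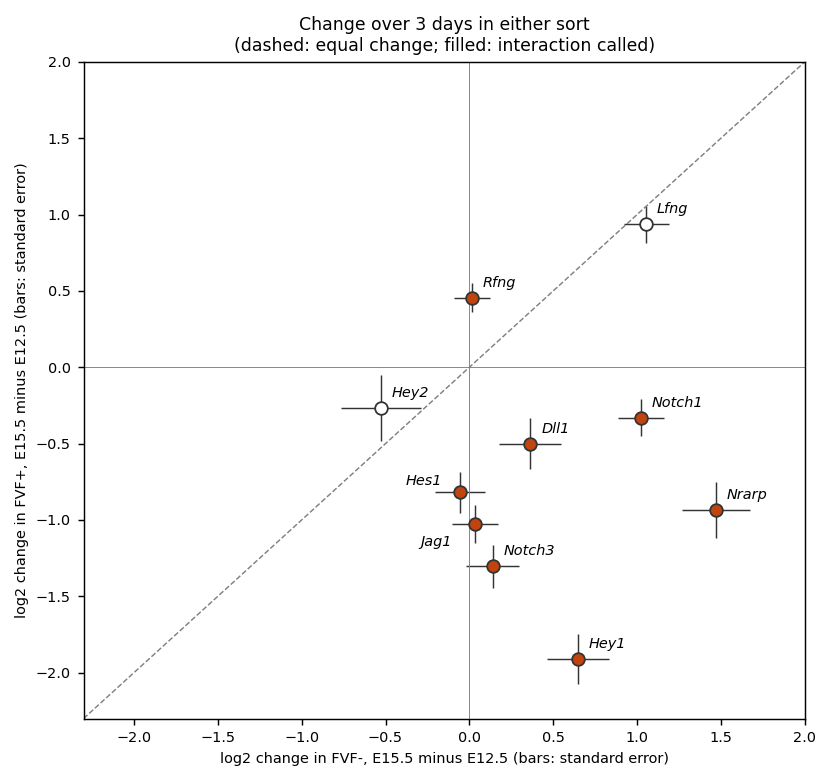
Log2 change from E12.5 to E15.5 in FVF- (horizontal axis) and in FVF+ (vertical axis) for the 10 genes, with standard errors as bars, a dashed line of equal change, and filled points where the interaction was called. Lfng lies at the line in the upper right, Hey1 and Nrarp lie farthest below it at interactions of -2.56 and -2.40, and Rfng lies above it.

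Of the 3 daily steps in FVF+ cells, the one from E13.5 to E14.5 held 6 of the calls. In the step from E12.5 to E13.5, limma called 0 of the 10 genes, where 0.00518% of all genes were called, and 3 had an unadjusted p under 0.05 (Jag1 with -0.49, Hey2 with 0.82 and Rfng with -0.25), where 9.71% of all genes had. With array weights Jag1 was called, and without FVF+ replicate 1 of E12.5 Hey2 was (1.11, adjusted p = 0.0152). In the step from E13.5 to E14.5, 6 were called, where 8.85% of all genes were. Hey1 fell by 1.27 ± 0.19 (adjusted p = 3.4e-04), Notch3 by 0.81 ± 0.16 (adjusted p = 0.00317), Hey2 by 0.78 ± 0.24 (adjusted p = 0.0497), Nrarp by 0.76 ± 0.20 (adjusted p = 0.0267) and Jag1 by 0.75 ± 0.14 (adjusted p = 0.00197), and Lfng rose by 0.46 ± 0.13 (adjusted p = 0.0403). This step rests on 2 FVF+ arrays of E13.5, both of which carry letters in place of numbers in their array codes, as does 1 FVF- array of that day. No source used here says what the letters stand for. A term for the letter-coded arrays is set by the difference between the 2 FVF- arrays of E13.5 alone, since both FVF+ arrays of that day carry letters. With a term for the letter-coded arrays 3 of the genes were called, without FVF+ replicate 2 of E13.5 only 1, and without FVF+ replicate 1 or 2 of E14.5, 3. All FVF+ values of Hey2 (6.28 to 7.94) lay below the array medians of 8.68 to 8.82. They are not shown to be above background, in this step and in the one before it. The call of Hey2 was lost under 24 of 32 other settings, among them quantile (-0.71) and cyclic loess normalization (-0.74), and the value was -0.40 without FVF+ replicate 2 of E13.5. That of Lfng was lost under 10 of 32, among them both of these normalizations (0.38 and 0.40) and either FVF+ array of E13.5 left out (0.42 and 0.50), and the value was 0.06 with the letter-coded term (adjusted p = 0.98). That of Nrarp was lost without either FVF+ array of E13.5 or FVF+ replicate 1 or 2 of E14.5 (-0.84 to -0.67). That of Notch3 was lost with the letter-coded term (-0.55, adjusted p = 0.56) and without FVF+ replicate 2 of E13.5 (-0.77). That of Jag1 was lost in the fit on the compared groups alone (-0.75, adjusted p = 0.0502) and without FVF+ replicate 2 of E13.5 (-0.63). In the step from E14.5 to E15.5, 3 were called, where 25.6% of all genes were: Hey1 fell by a further 0.81 ± 0.17 (adjusted p = 0.00337), and Lfng and Rfng rose by 0.44 ± 0.12 and 0.41 ± 0.10.

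In FVF- cells few steps were called. From E12.5 to E13.5 limma called 0 of the 10 genes, where 1.02% of all genes were called, and 3 had an unadjusted p under 0.05 (Notch1 with 0.37, Hey1 with 0.61 and Nrarp with 0.75), where 13.8% of all genes had. Without FVF- replicate 2 of E13.5, Nrarp was called (1.16, adjusted p = 0.0100). From E13.5 to E14.5, 2 were called, where 8.3% of all genes were, as Lfng rose by 0.61 ± 0.13 (adjusted p = 0.0137) and Rfng by 0.42 ± 0.11 (adjusted p = 0.0266). Neither was called without FVF- replicate 2 of E13.5 (0.41 and 0.32) or without FVF- replicate 1 of E14.5 (0.59 and 0.42), where Notch1 was the 1 gene called (0.61, adjusted p = 0.0109). Without FVF- replicate 1 of E13.5, 4 of the 10 were called. From E14.5 to E15.5 limma called 0, where 6.49% of all genes were called, and 4 had an unadjusted p under 0.05, namely Hes1 (-0.36), Nrarp (0.47), Lfng (0.31) and Rfng (-0.28), where 24.2% of all genes had. Without FVF- replicate 2 of E14.5, 1 was called. The calls of this sort over the whole time are thus not matched by calls in single steps for Notch1, Hey1 and Nrarp.

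The 10 genes did not share 1 profile. Over the 8 group means, the highest Pearson correlation between any 2 of them was 0.94, of Jag1 with Notch3, followed by 0.93, of Notch1 with Nrarp, and the lowest was -0.96, of Dll1 with Hey2. Those 8 points share arrays and normalization, and the values are a description. Against the 5267 genes whose group means span at least 1 log2 unit, the closest profiles to Dll1 were those of Habp2, Sim1 and Ambp (0.998 to 0.997), and to Hey2 those of Lix1l, Ldb2 and Olfml3 (0.998 to 0.997). Both sets follow the division between the sorts. The closest to Hey1 were Serpinf1 (0.967), Klf7 (0.940) and Herc6 (0.923), and to Nrarp Snx7 (0.977), Lifr (0.962) and Man1a (0.955). Jag1 was closest to Scube3 (0.957) and to another receptor gene of the pathway, Notch2 (0.952). Notch1 was closest to Ak4 (0.953), Notch3 to Golm1 (0.984), Hes1 to Gdf11 (0.976), Lfng to Gadd45b (0.977) and Rfng to Snord104 (0.976).

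Of 50 further genes of the pathway, listed by role, 47 were measured. For the mean sort difference 17 were higher in FVF+ (36.2%) and 18 lower (38.3%), with a median of 0.08, where 30.5% and 25.2% of all genes were. Over time in FVF+, 8 of the 47 rose (17.0%) and 10 fell (21.3%), with a median of 0.00, where 27.6% and 19.3% of all genes did. In FVF- 12 rose (25.5%) and 7 fell (14.9%), with a median of 0.05, where 10.7% and 9.7% of all genes did. The interaction was above 0 for 3 (6.38%) and below 0 for 9 (19.1%), with a median of -0.11, where 10.8% and 8.83% of all genes were.

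**Figure D4:**
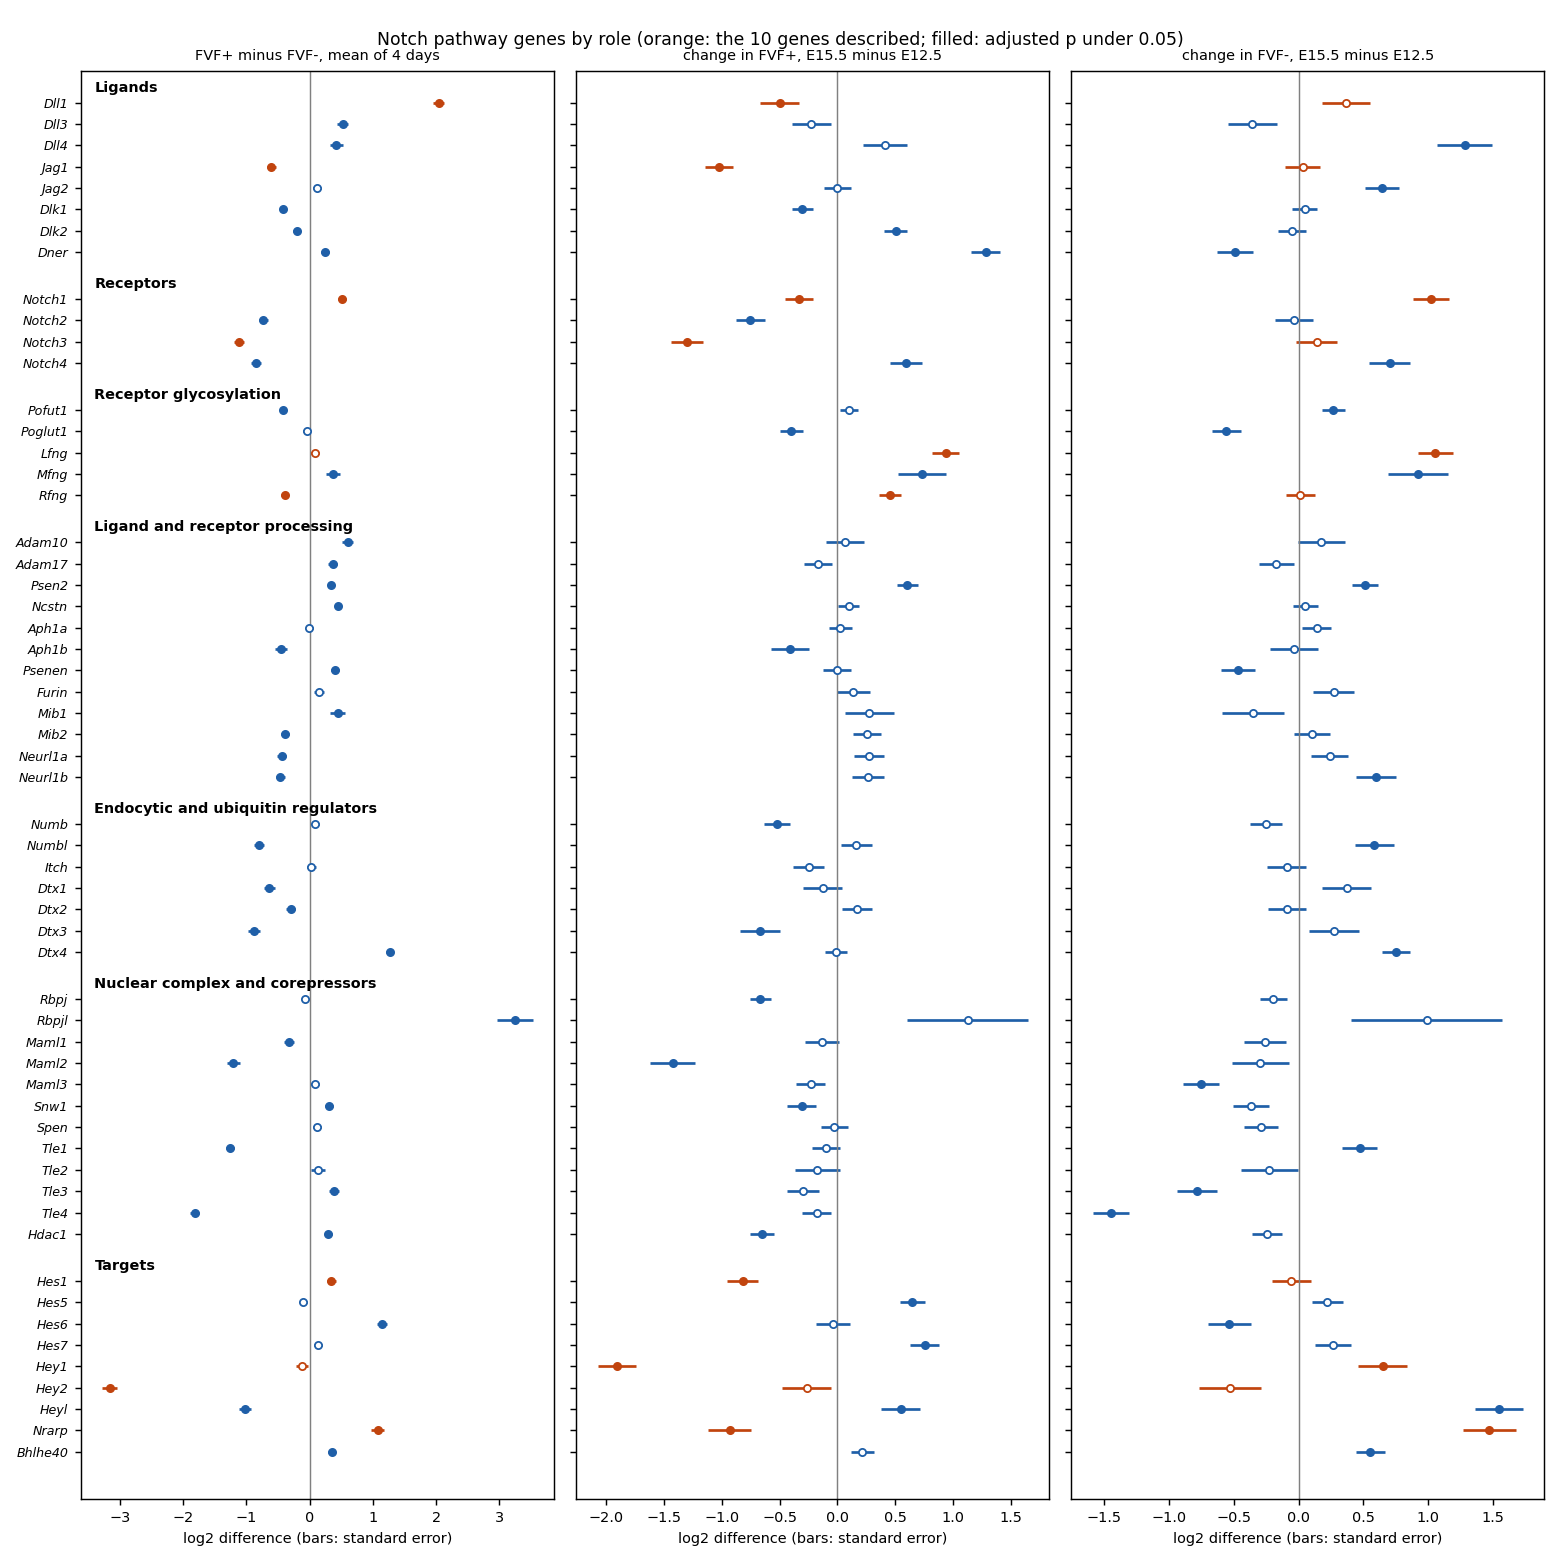
Log2 differences (horizontal axes, bars are standard errors) of the measured Notch pathway genes, grouped by role on the vertical axis: FVF+ minus FVF- over the 4 days on the left, the E12.5-to-E15.5 change of FVF+ in the middle and in FVF- on the right. The 10 genes described are in orange, and filled points passed an adjusted p under 0.05. Rbpjl at 3.24 and Hey2 at -3.16 mark the ends of the left panel.

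Among the other ligand genes, Dll3 and Dll4 were higher in FVF+ over the 4 days (0.52 ± 0.09 and 0.42 ± 0.10), and Dlk1 was lower (-0.43 ± 0.05). Dll4, a ligand of arterial endothelium, rose in FVF- by 1.28 ± 0.21 (adjusted p = 3.2e-04), as did Jag2 by 0.64 ± 0.13. Dner, a transmembrane protein of neurons that has been described as a Notch ligand, rose in FVF+ by 1.28 ± 0.12 (adjusted p = 6.1e-07) and fell in FVF- by 0.49 ± 0.14 (adjusted p = 0.018). All 4 receptor genes were called between the sorts, and Notch1 was the 1 that was higher in FVF+. Of all genes 30.5% were called as higher in FVF+ and 25.2% as lower. Notch2 was lower in FVF+ (-0.73 ± 0.07) and fell there by 0.75 ± 0.13 over time, as Notch3 did. Notch4, the endothelial receptor, was lower in FVF+ (-0.84 ± 0.08) and rose in both sorts, by 0.59 ± 0.14 and 0.70 ± 0.16. Mfng, the third Fringe gene, rose in both sorts as Lfng did, by 0.73 ± 0.21 in FVF+ and 0.92 ± 0.23 in FVF-.

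Of 12 measured genes for cutting and activating ligand and receptor, 6 were higher in FVF+ and 4 lower, where 30.5% and 25.2% of all genes were. They were led by the protease gene Adam10 (0.60 ± 0.09) and, on the other side, by Neurl1b (-0.46 ± 0.08), a ubiquitin ligase gene for ligands. Over time in FVF+, Psen2, a subunit gene of gamma-secretase, rose by 0.61 ± 0.09, Aph1b fell by 0.41 ± 0.16, and 10 were not called. Of all genes 27.6% rose there and 19.3% fell. In FVF-, Neurl1b rose by 0.59 ± 0.15, Psen2 rose by 0.51 ± 0.10, Psenen, another subunit gene of gamma-secretase, fell by 0.47 ± 0.13, and 9 were not called. Of all genes 10.7% rose in FVF- and 9.7% fell. Of 7 endocytic and ubiquitin regulator genes, Dtx4 was higher in FVF+ (1.26 ± 0.05, adjusted p = 2.3e-13) and 4 were lower, led by Dtx3 (-0.87 ± 0.09) and Numbl (-0.80 ± 0.07). The shares of all genes were again 30.5% higher and 25.2% lower.

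In the nucleus, the gene of the DNA-binding partner itself, Rbpj, was not called between the sorts (-0.07 ± 0.05, adjusted p = 0.22) and fell in FVF+ by 0.67 ± 0.09 from E12.5 to E15.5 (adjusted p = 2.5e-05), with -0.19 ± 0.10 in FVF- (adjusted p = 0.21). Its relative Rbpjl, a subunit gene of the acinar transcription complex, was higher in FVF+ by 3.24 ± 0.28. The co-activator gene Maml2 was lower in FVF+ (-1.21 ± 0.11) and fell there by 1.43 ± 0.20. Of the Groucho corepressor genes, Tle4 was lower in FVF+ cells (-1.82 ± 0.07, adjusted p = 6.4e-14) and fell in FVF- by 1.45 ± 0.14, and Tle1 was lower in FVF+ as well (-1.26 ± 0.07). Of the other target genes, Hes6, which is known to work against Hes1, was higher in FVF+ (1.14 ± 0.08), and Heyl, the third Hey gene, was lower (-1.02 ± 0.09) and rose in FVF- by 1.54 ± 0.19 and in FVF+ by 0.55 ± 0.17. Hes5 and Hes7 rose in FVF+ by 0.65 ± 0.11 and 0.76 ± 0.12, where Hes1, Hey1 and Nrarp fell. Of the 9 target genes 3 rose and 3 fell in FVF+, where 27.6% and 19.3% of all genes did.

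Of the genes that textbook accounts place under repression by Hes1, 3 were measured. Neurog3, the switch gene of endocrine differentiation, was higher in FVF+ over the 4 days (5.03 ± 0.19), and its change between E12.5 and E15.5 in FVF+, while Hes1 fell, was 0.53 ± 0.35 (adjusted p = 0.22). The FVF+ means of Neurog3 were 12.46, 12.935, 13.41 and 12.99 from E12.5 to E15.5, so the highest was that of E14.5. Its FVF+ arrays ran from 12.06 to 12.91 at E12.5 and from 12.95 to 13.02 at E15.5. Tests of its daily steps are not reported here. Cdkn1c, a cell cycle inhibitor gene, was lower in FVF+ (-1.86 ± 0.07) and fell there by 1.21 ± 0.13 (adjusted p = 2.4e-06). Cdkn1b, its relative, was higher in FVF+ (0.51 ± 0.06) and differed there by 0.09 ± 0.11 over time (adjusted p = 0.53).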

How the data were processed

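RNA of sorted FVF+ and FVF- pancreatic cells was measured on 21 Affymetrix arrays in 8 groups of sort and day, after purification with an RNeasy Mini kit and amplification and labelling with WT kits, per the labels' protocols. The authors summarised the arrays by RMA with affy 1.44.0, per the submitters' processing notes, and deposited them as log2 signals, a scale on which differences of dim genes are shrunk. No source used here says how probe sets were defined. The log2 values were used as deposited, with array medians of 8.68 to 8.82.

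Of 23305 probe sets, 20728 carried exactly 1 gene symbol, 1174 several and 1403 none, and the highest-mean probe set per gene left 19296 genes. The 10 symbols matched the reference gene table by Entrez identifier. A model of 8 group means was fitted to all arrays and genes in limma 3.58.1 (lmFit and eBayes, R 4.3.3) with 13 residual degrees of freedom. The two-sided p-values of each of 14 comparisons were adjusted over the 19296 genes (Benjamini-Hochberg) and called at an adjusted p under 0.05. Errors of differences are moderated standard errors (SE), and intervals are at 95%. The scripts were tested on simulated data.

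Genes named were all 10, up to 3 called genes per direction and up to 2 uncalled ones of each pathway list, and the 3 genes most alike to each of the 10 by Pearson correlation over group means, passing over predicted genes. Some genes of the lists are not reported here. Marker levels are means of log2 values over a list. The 10 genes and the lists were chosen with earlier results of these data known. Alternatives covered scaling, probe set choice, filtering, moderation, array weights, the replicate number as a block, a covariate for the 3 arrays with letter codes, fits on the compared groups alone, a 2-fold threshold and leaving out each array.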

Additional observations from a re-analysis of the deposited data

Results flagged for a closer look

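For 8 of the 10 genes the E12.5-to-E15.5 change differed between the sorts by the interaction term of limma, at an adjusted p under 0.05. The change in FVF+ minus that in FVF- was -2.56 log2 units for Hey1, -2.40 for Nrarp, -1.44 for Notch3, -1.35 for Notch1, -1.06 for Jag1, -0.86 for Dll1 and -0.77 for Hes1, and 0.44 for Rfng. Hey1 and Notch1 moved in opposite directions in the sorts by called changes, as did Nrarp (-0.93 in FVF+ and 1.47 in FVF-). All 8 share the 2 FVF- arrays of E12.5. With 2 or 3 arrays a group, single arrays that stand apart within a group were not tested.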

How the results depend on the processing

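No called difference of the 10 genes changed sign under any of the settings run. With replicate number as a block over all groups, 8 members were called in the mean sort difference, 7, 9, 7 and 5 in the daily ones, 9 and 4 in the changes in FVF+ and FVF-, and 7 in the interaction, and with the block inside each day 8, then 8, 7, 7 and 5, and 6. Of 66 pairs of arrays of 1 number, 20 had deviations that correlated above 0.1 (range -0.37 to 0.49), as did 3 of 10 pairs within a day. The values were -0.37, -0.22 and 0.49 at E14.5, and 0.20, 0.14 and 0.077 at E15.5. At E13.5 the deviations within a group mirror each other, so either number gives the same value (-0.027). No pairs of unlike number are given for comparison. These correlations therefore cannot decide whether the numbers pair the samples. The block ended the calls of Rfng in the interaction (0.43 under either block), of Notch3 at E12.5 (-0.41) and of Hey2 and Lfng in the FVF+ step to E14.5 (-0.69 and 0.47), and made one of Hes1 in that step (-0.53). Inside days it ended those of Dll1 in the interaction (-0.80) and of Jag1 and Hey1 at E13.5 (-0.43 and 0.59).

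At a 2-fold threshold the numbers of called members were 4 for the mean sort difference, 5, 3 and 4 for the sort differences of E12.5, E13.5 and E14.5, 3 for the change in FVF+, 1 and 0 for its steps to E14.5 and E15.5, 0 for the FVF- step to E14.5 and 5 for the interaction, a stricter rule by construction. Array weights, whose estimate stopped before its convergence tolerance was reached, gave 1 for the FVF+ step to E13.5 and 0 for the FVF- step to E14.5. The letter-coded term gave 3 for the FVF+ step to E14.5 and, in FVF-, 1 for the step to E13.5 and 0 for that to E14.5. For the FVF- steps that term gives the same values as leaving out FVF- replicate 2 of E13.5, so the 2 are not separate settings there. Fits on the compared groups gave 3 for the FVF+ and 0 for the FVF- step to E14.5, and quantile and cyclic loess normalization gave 1 each for the FVF- step to E15.5. The cause was not tested. Leaving out single arrays gave 0 to 1, 1 to 7 and 2 to 4 called members in the FVF+ steps, 0 to 1, 0 to 4 and 0 to 1 in the FVF- steps, and 5 to 8 in the interaction.

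Signs changed only where no call was made before or after. After cyclic loess normalization this held for Hes1 in the change in FVF- (0.068), for Lfng in the mean and E15.5 sort differences (-0.0017 and -0.0067) and for Rfng in that of E15.5 (-0.025). Median centring turned the E15.5 sort differences of Hes1 and Notch1 (0.03 each) and the changes in FVF- of Jag1 (-0.05) and Rfng (-0.067), quantile normalization that of Rfng (-0.042), and array weights the E14.5 sort difference of Hes1 (0.0040). Over single arrays left out, the sort difference ran from -0.10 to 0.30 for Lfng at E13.5, from -0.097 to 0.0083 for Hes1, -0.155 to 0.005 for Lfng and -0.22 to 0.12 for Notch1 at E14.5, and from -0.18 to 0.075 for Hes1, -0.097 to 0.03 for Notch1, -0.29 to 0.045 for Nrarp and -0.055 to 0.105 for Rfng at E15.5. The change in FVF+ of Hey2 ran from -0.49 to 0.022, the changes in FVF- from -0.22 to 0.11 for Hes1, -0.043 to 0.107 for Jag1, -0.045 to 0.26 for Notch3 and -0.045 to 0.085 for Rfng, and the interaction of Lfng from -0.247 to 0.013. A further 33 daily steps of single genes had an unadjusted p of 0.05 or more and are not reported singly, a choice made after seeing the data. They changed sign 14 times with all arrays kept and 24 times with 1 array left out. Beyond the counts above, 37 calls of single genes were lost and 16 gained under settings that kept all arrays, and 71 were lost and 14 gained over the fits that left out 1 array. All groups hold 2 or 3 arrays, and their number limits the precision.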
